A study of Mus musculus with 4 samples.

Results

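The genes described are 10 transcripts of the YAP/TEAD transcription programme, named by symbol with earlier results of these data known: the coactivator genes Yap1 and Wwtr1, the DNA-binding factor genes Tead1 and Tead3, and the target genes Ctgf, Cyr61, Ankrd1, Amotl2, Ajuba and Lats2. All 10 had at least 1 count among 26144 genes with counts. RNA was sequenced from intestinal organoids, 36 hours after irradiation of the cultures with 8 Gy. The source mice were C57BL/6 of wild type genotype and 8 to 12 weeks old. Organoids are epithelial cultures that form crypt-like and villus-like regions in a gel and lack the stroma of the gut. Organoids that received SGC-CBP30, an inhibitor that occupies the acetyl-lysine pocket of the CBP and p300 bromodomains, gave 2 libraries, and organoids that received vehicle gave 2. Both groups were irradiated, and no unirradiated organoids were analysed here. The treatment label of SGC-CBP30 replicate 2 reads SGC-CBP31; its title places it with replicate 1. No label tells whether replicates were separate cultures or animals, so each p-value reflects only how far these libraries scatter, which may be technical.

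YAP, and its paralogue TAZ, the product of Wwtr1, carry no DNA-binding domain of their own and reach target genes by binding TEAD factors. The Hippo kinase cascade, in which MST kinases activate LATS kinases, phosphorylates YAP and TAZ and keeps them in the cytoplasm. In the intestine YAP is known for its part in crypt regeneration after irradiation or ulceration, and CBP and p300 are among the coactivators known to act at enhancers that YAP, TAZ and TEAD occupy.

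The libraries held 16674571 and 17076724 counts with SGC-CBP30 and 18087250 and 16433117 with vehicle. Epithelial markers were abundant, with summed levels of 8984 and 8355 CPM (counts scaled to a common library size) in the SGC-CBP30 libraries and 7122 and 7133 CPM in the vehicle libraries. Of these 7 markers 3 were higher with SGC-CBP30, all keratin genes and led in level by Krt8. The transcription factor gene Cdx2 was lower, and Epcam, Cdh1 and Vil1 did not pass the test. These 4 and the keratin genes Krt18 and Krt19 were named after their values were seen. Among all tested genes 13.6% were called higher and 16.3% lower. Markers of other cell types were near 0. The 10 fibroblast and smooth muscle markers together reached 3.41 and 1.94 CPM with SGC-CBP30 and 1.47 and 1.19 CPM with vehicle, the 5 endothelial markers 2.29 and 1.82 CPM against 2.21 and 2.32 CPM, and the 5 leukocyte markers with counts 2.998 and 2.91 CPM against 4.30 and 2.95 CPM. Lum and Thy1, of the fibroblast and smooth muscle list, had no count. The most abundant were Pdgfrb, Pecam1 and Cd68, none past the threshold. The genes of the inhibited proteins differed little: Ep300 rose by 0.24 ± 0.07 (SE) on the log2 scale and Crebbp had 0.16 ± 0.08 (edgeR quasi-likelihood adjusted p = 0.00688 and 0.154).

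With SGC-CBP30, Ctgf, Ajuba, Wwtr1 and Tead1 rose, while Yap1, Tead3, Cyr61, Amotl2 and Lats2 did not pass the test, and Ankrd1 had too few counts to be tested. Of the 9 members tested 4 were higher and 0 lower at an adjusted p under 0.05 (edgeR quasi-likelihood test, Benjamini-Hochberg adjustment over 14684 genes). Among all tested genes 13.6% were called higher and 16.3% lower, 30.0% in all. At an unadjusted p under 0.05 the members counted 4 higher and 0 lower. The share of all genes at that cut was not counted, so the shares above do not apply to it. DESeq2 also called 4 members higher and 0 lower, with 1244 of all genes called higher and 1817 lower. Both SGC-CBP30 libraries lay on one side of both vehicle libraries in 7 of the 9, with SGC-CBP30 higher in 5 and lower in 2; over all tested genes this held for 63.1%, 32.1% higher and 31.0% lower. The median log2 fold change of the 9 was 0.20, beside 0.01 over all tested genes. Without vehicle replicate 1 the members called higher were 2, Ctgf and Ajuba, with 1236 genes called higher in all. With library totals alone as the scale the genes called numbered 2907 higher and 1924 lower, against 2004 and 2397 with TMM factors, and the same 4 members were called higher. RNA from whole organoids cannot tell fewer cells of a type from less RNA per cell.

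**Figure D1:**
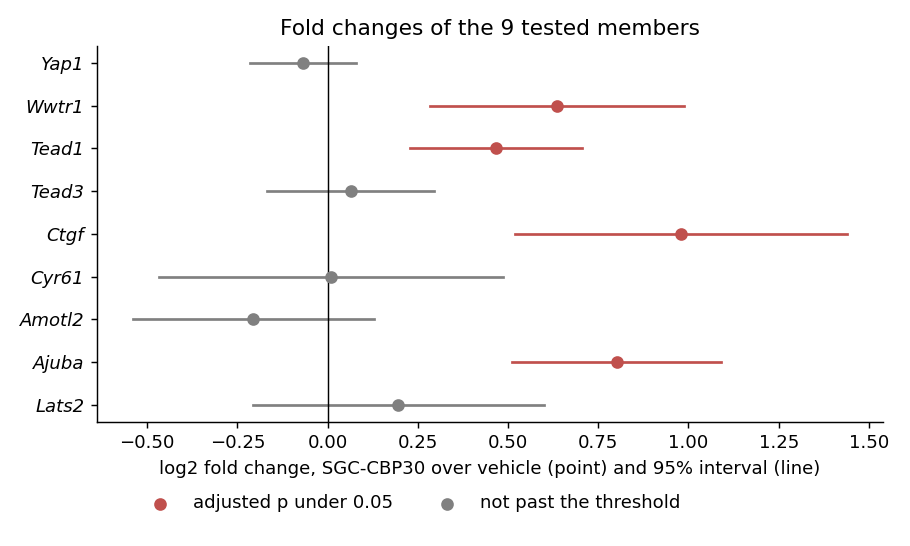
Log2 fold change, SGC-CBP30 over vehicle, of the 9 tested members (points) with 95% intervals (lines), from the edgeR fit on 2 libraries per group. The intervals of Wwtr1, Tead1, Ctgf and Ajuba, in red, lie above 0, and those of the other 5, in grey, include 0.

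The stretch just before a gene's start shows where a TEAD factor could bind in principle. TEAD proteins recognise the core GGAATG, read as CATTCC on the other strand. RefSeq promoter windows of build GRCm38.p6 were at hand for 8 members; Ctgf and Tead1 had no entry. Over the 250 bases before the start, 9 of the 12 windows of these 8 genes held the core on either strand, beside 12.6% of all 32851 windows. Windows of 1 gene can share bases: both Wwtr1 windows hold the same match. By gene, 7 of the 8 held the core. The 12.6% is a share of windows, and the share by gene over all genes was not counted. The genes were named for the YAP/TEAD programme, so their share was not tested against that of all windows. A match is a run of letters and not a bound site. Shown are the windows, clear of annotated exons, of a target that rose, Ajuba, of a coactivator that rose, Wwtr1, and of a target that did not pass the test, Cyr61, each 5′ to 3′ on the gene's strand with the core in capitals. They lie at chr14:54577662-54577911 (minus strand), chr3:57575911-57576160 (minus strand) and chr3:145649986-145650235 (minus strand).
Ajuba: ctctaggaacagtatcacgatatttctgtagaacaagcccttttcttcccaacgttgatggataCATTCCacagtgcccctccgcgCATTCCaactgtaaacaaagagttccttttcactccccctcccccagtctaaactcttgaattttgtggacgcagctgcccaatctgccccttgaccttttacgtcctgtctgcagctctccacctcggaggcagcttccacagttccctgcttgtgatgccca
Wwtr1: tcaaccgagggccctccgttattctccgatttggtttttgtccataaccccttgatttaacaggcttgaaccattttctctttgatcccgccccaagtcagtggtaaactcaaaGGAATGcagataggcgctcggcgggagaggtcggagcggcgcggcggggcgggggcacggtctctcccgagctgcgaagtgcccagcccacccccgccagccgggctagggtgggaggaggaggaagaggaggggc
Cyr61: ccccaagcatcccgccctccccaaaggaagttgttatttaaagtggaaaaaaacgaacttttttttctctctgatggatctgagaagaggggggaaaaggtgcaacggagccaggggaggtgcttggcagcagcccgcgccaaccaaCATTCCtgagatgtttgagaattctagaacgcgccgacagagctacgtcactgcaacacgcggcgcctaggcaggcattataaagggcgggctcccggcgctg
Counted back from the start, the Ajuba matches begin at bases -186 and -164, the Wwtr1 match at -136 and the Cyr61 match at -103. All windows shown hold a match, so the core was present before a target that rose and before one that did not pass the test. Lats2, another target that did not pass the test, had no match before either of its starts.

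**Figure D2:**
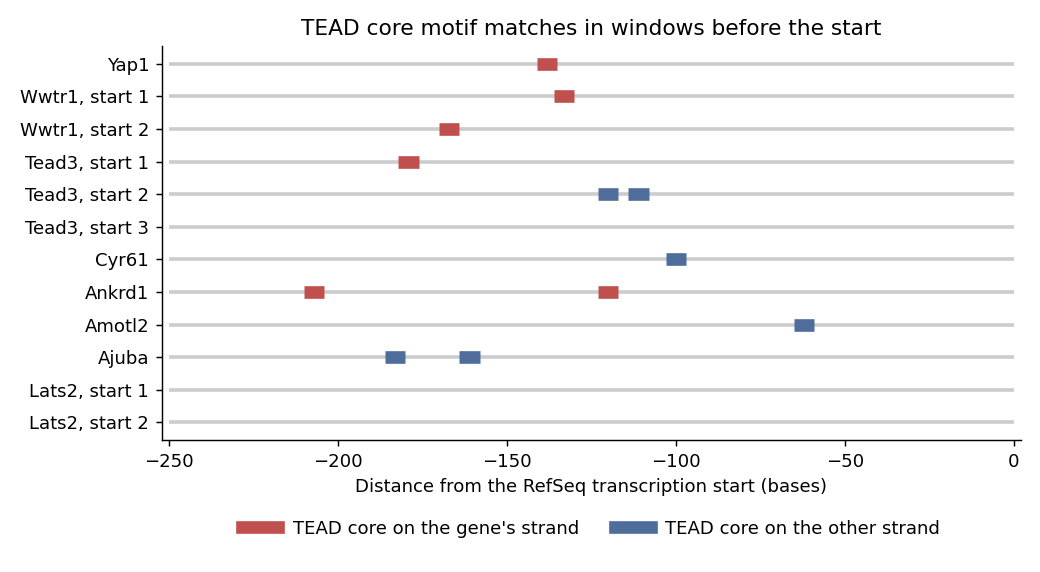
Matches to the TEAD core in the 250 bases before each RefSeq transcription start of the 8 members with an entry, one line per start, by distance from the start in bases; red marks the core on the gene's strand and blue on the other strand. Ankrd1, Ajuba and the second Tead3 start have 2 matches each, and both Lats2 starts and the third Tead3 start have none.

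Of the coactivators, Wwtr1 rose and Yap1 did not pass the test. Yap1 (ENSMUSG00000053110, chromosome 9, 7931999 to 8004596, minus strand of GRCm38, as are all gene spans here) was the most abundant member per length. It had 1554 and 1602 counts with SGC-CBP30 and 1677 and 1538 with vehicle, or 91.4 and 91.2 CPM against 94.97 and 96.4 CPM. Its libraries lay slightly lower with SGC-CBP30, without overlap, and the log2 fold change of -0.07 ± 0.07 (SE, edgeR adjusted p = 0.528) had a 95% interval of -0.21 to 0.079. With library totals as the scale the sign turned, to 0.0054. The interval leaves room for a decrease to 0.862-fold or an increase to 1.06-fold.

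Wwtr1 (ENSMUSG00000027803, chromosome 3, 57455649 to 57575910, minus strand) had 214 and 199 counts with SGC-CBP30 and 125 and 133 with vehicle. These were 12.6 and 11.3 CPM against 7.08 and 8.34 CPM, so both SGC-CBP30 libraries lay above both vehicle libraries. It rose 1.55-fold (95% interval 1.22 to 1.98; log2 fold change 0.64 ± 0.17, edgeR adjusted p = 0.00589). Leaving out vehicle replicate 1 ended the call (log2 fold change 0.52, adjusted p = 0.0703), and in the authors' deposited table the adjusted p of Wwtr1 is 0.0636.

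Per length, TAZ transcripts were the minor form of the pair. Of the summed FPKM of Yap1 and Wwtr1 (fragments scaled to gene length and library size, as the authors deposited them), Wwtr1 made up 21.1% and 19.4% in the SGC-CBP30 libraries and 12.6% and 14.4% in the vehicle libraries, or 20.2% ± 1.18 against 13.5% ± 1.22 (SD, n = 2 each). The groups lay apart, but an exact two-sided permutation test of 2 against 2 libraries cannot go below p = 0.333, the value it gave here.

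Of the DNA-binding partners, Tead1 rose and Tead3 did not pass the test. Tead1 (ENSMUSG00000055320, chromosome 7, 112679318 to 112906807, plus strand) had 590 and 733 counts with SGC-CBP30 and 440 and 487 with vehicle, or 34.7 and 41.8 CPM against 24.9 and 30.5 CPM. The groups did not overlap, although the higher vehicle library came close to the lower SGC-CBP30 library. It rose 1.38-fold (95% interval 1.17 to 1.63; log2 fold change 0.47 ± 0.12, edgeR adjusted p = 0.00307), a call that leaving out vehicle replicate 1 ended (log2 fold change 0.33, adjusted p = 0.0879). It stood at 0.59 without SGC-CBP30 replicate 1 and 0.33 without SGC-CBP30 replicate 2.

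Tead3 (ENSMUSG00000002249, chromosome 17, 28331671 to 28350817, minus strand) had 435 and 466 counts with SGC-CBP30 and 418 and 418 with vehicle, 25.6 and 26.5 CPM against 23.7 and 26.2 CPM. The groups overlapped, and its log2 fold change of 0.06 ± 0.11 had a 95% interval of -0.17 to 0.30 (edgeR adjusted p = 0.723). The remaining paralogues were scarce. Tead4 had 63 and 55 counts against 45 and 73, and Tead2 35 and 17 against 26 and 32, and neither was past the threshold. Tead1 took 32.7% and 38.0% of the FPKM summed over the 4 Tead genes in the SGC-CBP30 libraries, and 28.8% and 28.7% in the vehicle libraries (exact permutation p = 0.333, the smallest possible). That sum itself was 7.79 and 8.06 FPKM against 6.33 and 7.82 FPKM, and the groups overlapped.

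**Figure D3:**
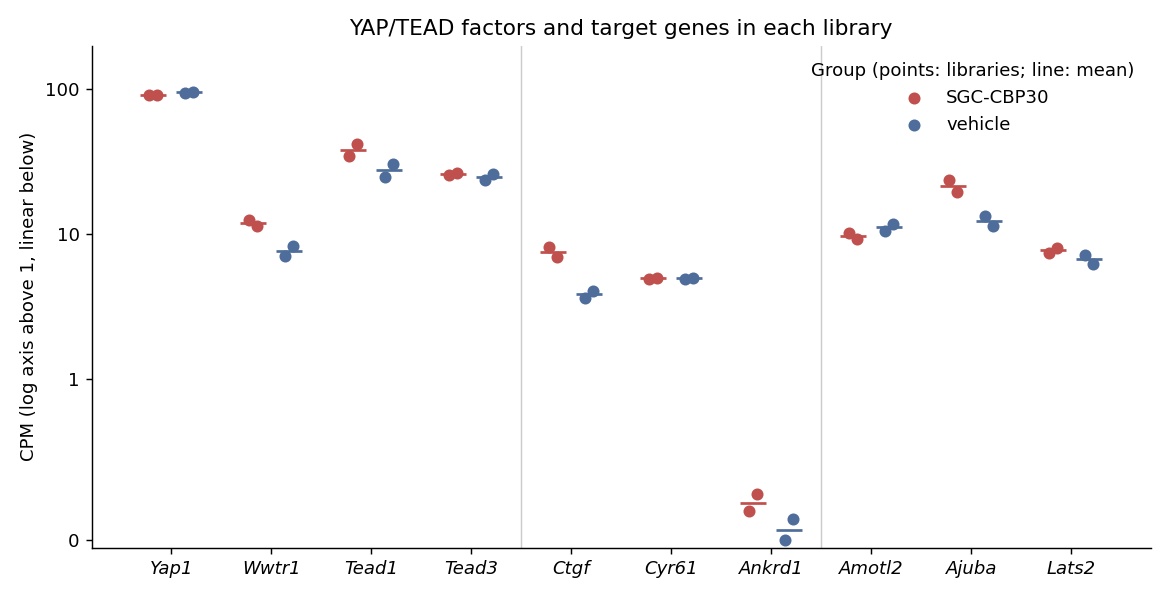
CPM of each member in each library, SGC-CBP30 left of vehicle within a gene; points are libraries, short lines group means (n = 2), and the axis is logarithmic above 1 and linear below. Both SGC-CBP30 libraries lie above both vehicle libraries for Wwtr1, Tead1, Ctgf and Ajuba, and also for Lats2, which did not pass the test, and Ankrd1, which was not tested, while Cyr61 sits near 5 CPM in all 4 libraries.

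Of the secreted targets, Ctgf rose and its close relative Cyr61 did not pass the test. Both encode CCN matricellular proteins, which bind integrins and matrix, and both are standard readouts of YAP activity. Ctgf (also called Ccn2; ENSMUSG00000019997, chromosome 10, 24595442 to 24598683, plus strand) had 139 and 123 counts with SGC-CBP30 and 64 and 65 with vehicle. These were 8.17 and 7.01 CPM against 3.62 and 4.07 CPM, with each SGC-CBP30 library well above each vehicle library. It rose 1.97-fold (95% interval 1.43 to 2.71; log2 fold change 0.98 ± 0.22, edgeR adjusted p = 0.00149), the largest fold change of the tested members, and stayed past the threshold in all 10 other settings tried. Of the 8 fibroblast and smooth muscle markers with counts, 4 lay higher in both SGC-CBP30 libraries than in both vehicle libraries and 4 overlapped. Over all tested genes 32.1% lay higher in this way, a share that leaves out genes with too few counts to be tested, as these 4 were. The 4 markers, named after their values were seen, had few counts. Col3a1 had 16 and 7 with SGC-CBP30 against 1 and 1 with vehicle, and Col1a1 9 and 2 against 0 and 0. Des and Col1a2 each had 1 and 1 against 0 and 0. Of the 8 markers only Pdgfrb had enough counts to be tested, and it did not pass (edgeR adjusted p = 0.902). The list's sums, 3.41 and 1.94 CPM with SGC-CBP30 and 1.47 and 1.19 CPM with vehicle, lay apart as well. Their part in the Ctgf difference was not tested.

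Cyr61 (also called Ccn1; ENSMUSG00000028195, chromosome 3, 145646976 to 145649981, minus strand) had 84 and 88 counts with SGC-CBP30 and 86 and 80 with vehicle, or 4.94 and 5.01 CPM against 4.87 and 5.01 CPM. The groups overlapped, with a log2 fold change of 0.01 ± 0.23 (edgeR adjusted p = 0.982). At this depth its 95% interval ran from 0.724-fold to 1.40-fold. The ratio of Ctgf to Cyr61 FPKM was 1.17 and 0.986 in the SGC-CBP30 libraries and 0.525 and 0.573 in the vehicle libraries (exact permutation p = 0.333, the smallest possible).

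Ankrd1 (ENSMUSG00000024803, chromosome 19, 36111965 to 36119844, minus strand), which encodes a nuclear ankyrin repeat protein best known from heart muscle, was barely detected. It had 3 and 5 counts with SGC-CBP30 and 0 and 2 with vehicle, where 3 counts equal 0.170 to 0.188 CPM. The summed counts of 8 against 2 gave a ratio of 3.89 with an exact 95% counting interval of 0.777 to 37.6, so a difference was not detectable at this depth.

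**Figure D4:**
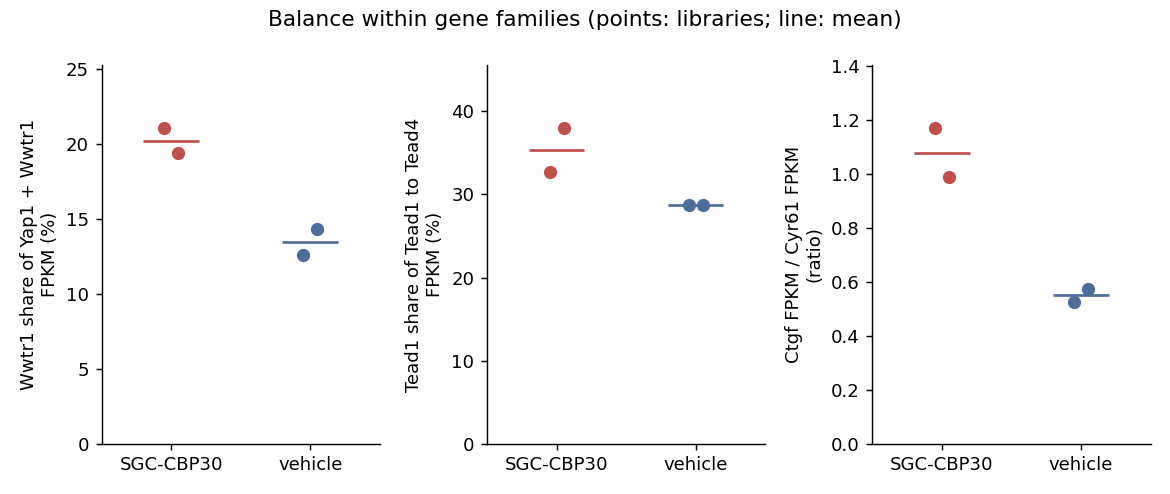
Balance within 3 families in each library from deposited FPKM: the share of Wwtr1 in Yap1 plus Wwtr1 (percent), the share of Tead1 in Tead1 to Tead4 (percent), and the ratio of Ctgf to Cyr61; points are libraries and lines group means (n = 2). In each panel both SGC-CBP30 points lie above both vehicle points.

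The targets that act back on the pathway behaved unevenly. Ajuba (ENSMUSG00000022178, chromosome 14, 54567472 to 54577558, minus strand), a LIM protein of cell junctions that binds LATS kinases and restrains them, had 403 and 342 counts with SGC-CBP30 and 236 and 181 with vehicle. These were 23.7 and 19.5 CPM against 13.4 and 11.3 CPM, and the groups lay well apart. It rose 1.74-fold (95% interval 1.43 to 2.13; log2 fold change 0.80 ± 0.14), had the smallest p of the tested members (edgeR adjusted p = 8.99e-05) and stayed past the threshold in all 10 other settings.

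Amotl2 (ENSMUSG00000032531, chromosome 9, 102716672 to 102733418, plus strand), an angiomotin-like protein that binds YAP and holds it at junctions, had 172 and 162 counts with SGC-CBP30 and 186 and 188 with vehicle. Its 10.1 and 9.23 CPM against 10.5 and 11.8 CPM lay lower without overlap, but the log2 fold change of -0.21 ± 0.16 did not pass the test (edgeR adjusted p = 0.380, 95% interval 0.688-fold to 1.09-fold). Lats2 (ENSMUSG00000021959, chromosome 14, 57689662 to 57758388, minus strand), the kinase that phosphorylates YAP and TAZ, had 127 and 140 counts with SGC-CBP30 and 127 and 100 with vehicle. Its 7.47 and 7.97 CPM against 7.19 and 6.27 CPM lay higher without overlap, with a log2 fold change of 0.20 ± 0.20 (edgeR adjusted p = 0.502, 95% interval 0.866-fold to 1.52-fold).

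In order of level per length, Yap1 led in both groups, at 9.81 ± 0.0138 FPKM with SGC-CBP30 and 10.3 ± 0.146 FPKM with vehicle (SD, n = 2 each). With SGC-CBP30 it was followed by Ajuba (5.89 FPKM), Tead3 (3.86), Tead1 (2.80), Ctgf (2.64), Wwtr1 (2.49), Cyr61 (2.45), Amotl2 (1.53), Lats2 (1.10) and Ankrd1 (0.130), where the libraries of Tead1 and Ctgf, of Ctgf and Wwtr1, and of Wwtr1 and Cyr61 overlapped, as did those of Tead1 and Wwtr1 and of Ctgf and Cyr61 further apart in the order. With vehicle the order was Tead3 (3.69 FPKM), Ajuba (3.37), Cyr61 (2.43), Tead1 (2.03), Amotl2 (1.76), Wwtr1 (1.60), Ctgf (1.34), Lats2 (0.960) and Ankrd1 (0.0354), where the libraries of Tead3 and Ajuba, of Tead1 and Amotl2, and of Amotl2 and Wwtr1 overlapped. Ctgf lay below Cyr61 in both vehicle libraries, whereas with SGC-CBP30 it lay above Cyr61 in replicate 1 and just below it in replicate 2. Among 12476 tested protein-coding genes Yap1 exceeded 65.4% with SGC-CBP30 and 66.4% with vehicle, and Ctgf 33.0% against 22.1%.

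Annotated genes overlap 5 members: Yap1, Wwtr1, Tead1, Ctgf and Lats2. The 8 overlapping genes had at most 13 counts each over all 4 libraries, far fewer than the members they overlap. Reads of those on the opposite strand cannot be told from reads of the members where the counting did not use strand, which is not given in the sources used here. Gm44462 lies on the strand of Tead1 and Gm49361 on that of Lats2, so strand cannot separate their reads.

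Beyond the members, 5 lists of Hippo pathway and YAP target genes held 69 genes, of which 59 were tested, 19 were higher and 3 lower, with a median log2 fold change of 0.16; without vehicle replicate 1 the counts were 12 and 3. With no library left out, 13.6% of all tested genes were called higher and 16.3% lower by edgeR at an adjusted p under 0.05. These are the shares to set beside each list's edgeR calls. They do not apply to the unadjusted counts of the lists, for which the share of all genes was not counted. DESeq2 called 1244 of all genes higher and 1817 lower. Among 21 kinases, cofactors and activators of the cascade 6 were higher, 0 lower and 15 not past the threshold (edgeR). At an unadjusted p under 0.05 there were 10 higher and 0 lower, and by DESeq2 5 and 0. Leaving out SGC-CBP30 replicate 2 brought the lower count in this list to 2. Map4k4, which encodes a kinase able to activate LATS, rose by 0.69 ± 0.08 on the log2 scale, the related kinase gene Tnik by 0.56 ± 0.07 and Wwc2, of the KIBRA family of scaffolds, by 1.10 ± 0.21 (edgeR adjusted p = 9.02e-08, 1.72e-06 and 2.85e-04). The others, named after their values were seen, were Stk3, Taok2 and Taok3. Lats1, the paralogue of Lats2, had 0.0039 ± 0.07 and Nf2, which encodes the upstream activator merlin, 0.06 ± 0.08, both named after their values were seen.

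Of 9 tested genes for other YAP-retaining, LIM and TEAD cofactor proteins 2 were higher, 0 lower and 7 not past the threshold (2 higher and 0 lower at an unadjusted p under 0.05, 1 and 0 by DESeq2). Amot, the founding angiomotin, rose by 0.37 ± 0.10 on the log2 scale and Wtip, a LIM protein related to Ajuba, by 0.63 ± 0.24 (edgeR adjusted p = 0.00599 and 0.0454). Amot was no longer called when vehicle replicate 2 (adjusted p = 0.0513) or SGC-CBP30 replicate 2 (adjusted p = 0.0806) was left out. Wtip was not called in DESeq2 (adjusted p = 0.156), without a filter on low counts (adjusted p = 0.0551) and without any 1 of the 4 libraries (adjusted p = 0.0595 to 0.190). Of 9 tested cadherin and polarity genes 5 were higher and 0 lower (5 and 0 at an unadjusted p under 0.05, 3 and 0 by DESeq2; 2 higher without vehicle replicate 1). Dlg5 rose by 0.67 ± 0.10, Scrib by 0.35 ± 0.07 and Patj by 0.25 ± 0.06; all encode scaffolds of epithelial polarity. Patj had an adjusted p of 0.171 once vehicle replicate 1 was left out.

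Of 12 tested YAP/TAZ targets outside the members 4 were higher, 0 lower and 8 not past the threshold, with a median log2 fold change of 0.34 (6 higher and 0 lower at an unadjusted p under 0.05, 3 and 0 by DESeq2). Asap1, which encodes an Arf GTPase-activating protein, rose by 0.93 ± 0.11 on the log2 scale, the tissue factor gene F3 by 0.88 ± 0.10 and Crim1, the gene of a membrane protein that binds BMPs, by 0.33 ± 0.09 (edgeR adjusted p = 5.97e-07, 2.25e-07 and 0.00774). The adjusted p of Crim1 became 0.228 once vehicle replicate 1 was left out. The fourth, Arhgef17, was named after its values were seen. Ptpn14 belongs both to this list and to that of YAP-retaining, LIM and TEAD cofactor genes, and counts once in the total over all lists. Of 9 tested genes linked to YAP in intestinal repair 2 were higher, 3 lower and 4 not past the threshold, with a median of -0.0021. Msln rose by 0.54 ± 0.09 and Anxa1, which encodes a phospholipid-binding protein of repair, by 0.70 ± 0.13. Ly6a, a marker of repairing and fetal-like epithelium, fell by 1.32 ± 0.16, the alarmin gene Il33 by 0.95 ± 0.17 and Ereg, which encodes the EGF receptor ligand epiregulin, by 0.84 ± 0.12. The ligand gene Areg, named after its values were seen, had 84.2 and 84.5 CPM with SGC-CBP30 and 82.6 and 86.3 CPM with vehicle, and did not pass the test.

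**Figure D5:**
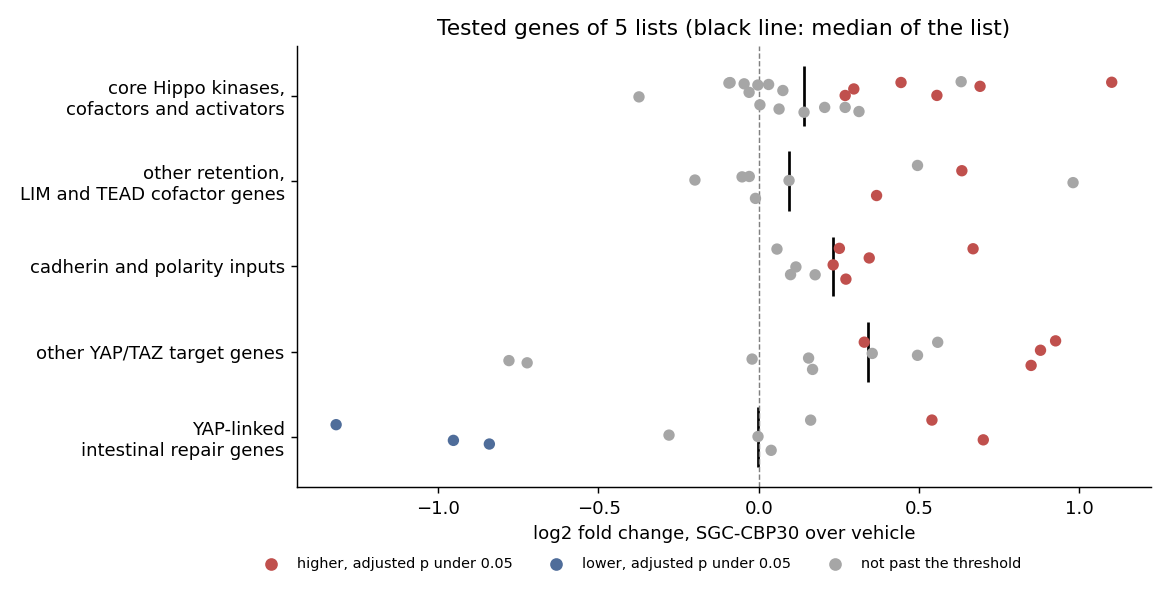
Log2 fold change, SGC-CBP30 over vehicle, of the tested genes in 5 lists (points; red higher and blue lower at an adjusted p under 0.05, grey not past the threshold), with each list's median as a black line. The 3 genes called lower all belong to the list of intestinal repair genes, whose median is -0.0021.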

How the data were processed

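RNA-seq libraries of irradiated organoids were grouped by title, 2 with SGC-CBP30 and 2 with vehicle. Per the submitters' processing notes, featureCounts 1.5.0-p3, HISAT2 2.0.5 and StringTie 1.3.3b were used, with roles not stated, and the build is given as mm9. Gene coordinates are however those of GRCm38: 97.3% of 26128 identifiers with counts match GENCODE M21 exactly, and 9 of the 10 members do (Ankrd1 differs). The authors deposited raw counts per gene, FPKM (per gene length and scaled library total), group means on a normalized signal scale, and a comparison with an unnamed test giving a log2 fold change, a p-value and an adjusted p-value. The deposited table is held in part, ending within a line among genes without counts; later genes were not used here. Raw counts were tested and deposited FPKM served for levels per length; TPM from counts and deposited length were the alternative.

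Genes kept by filterByExpr (14684) were tested with edgeR 4.0.16 in R 4.3.3: TMM factors, robust dispersions, quasi-likelihood F test without covariates, Benjamini-Hochberg adjustment over all genes, called at an adjusted p under 0.05. The fit was tested on simulated data. SE is the log2 fold change divided by the square root of F. Alternatives were DESeq2 1.42.0, other scalings and filters, a replicate block and leaving out each library. Named genes are the members, Crebbp, Ep300, up to 3 called genes of smallest p per direction in each list, and the most abundant marker per cell type. Members and lists were chosen with earlier results of these data known. Counting intervals cover counting error only. No libraries were duplicates: the chi-square between replicates, divided by its degrees of freedom, was 6.22 for SGC-CBP30 and 2.97 for vehicle.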

Additional observations from a re-analysis of the deposited data

How the results depend on the processing

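Leaving out each library in turn gave 2899 to 4557 genes called, 1235 to 2104 of them higher, 2 to 4 members called higher, a member median of 0.14 to 0.30, and 12 to 20 higher and 3 to 5 lower genes in the 5 lists. In each of these fits 1 group held 1 library, so scatter was estimated from the other pair alone. The chi-square between replicates, divided by its degrees of freedom, was 6.22 for SGC-CBP30 and 2.97 for vehicle. The lowest member count came without vehicle replicate 1, and the most lower genes in the lists without SGC-CBP30 replicate 2. The cause was not tested. DESeq2 called 1244 genes higher. Signs near 0 turned: Yap1 was 0.0054 with library totals and Cyr61 -0.0047 with only genes of 50 or more counts in 2 libraries. With a library left out, the log2 fold change ranged from -0.0073 to 0.14 for Tead3, -0.011 to 0.035 for Cyr61, -0.011 to 0.44 for Cd68, -0.11 to 0.42 for Pdgfrb and -0.76 to 0.12 for Pecam1. None of these was called. The order of levels was the same with TPM. Same-numbered libraries did not deviate together (correlation of deviations -0.0244 over 14684 genes), so the numbers were not taken as pairs; with the replicate block 4703 genes were called, 4 members higher, 0 lower, and 20 and 3 genes in the lists. Members with few counts limit what can be seen: the interval of Cyr61 spans 0.724-fold to 1.40-fold.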
